A study of Mus musculus with 4 samples.

Results

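Neutrophil granule protein genes were examined in lung tissue with metastases of 4T1, a mouse triple-negative breast cancer (TNBC) line, as 10 genes of the 56748 in the deposited count table. Each was found by its gene symbol: *Mpo*, *Elane*, *Prtn3* and *Ctsg* of the primary granules, *Ltf*, *Camp*, *Ngp*, *Lcn2* and *Chil1* of the secondary granules, and *Ltb4r1*. The last one does not encode a granule protein but a surface receptor of neutrophils, and it is kept apart below. The 10 genes were chosen by their measured counts in these same samples, so their differences between the groups are given as a description, without a test. Female BALB/cJ mice, 7 weeks of age, received 4T1-FLuc cells, which carry luciferase, by vein. The saline group (2 samples) was given vehicle alone, named PBS in the labels. The ADC/cmLumiOpto group (2 samples) was given an anti-CD276 antibody coupled to mertansine (DM1), a microtubule inhibitor, together with cmLumiOpto, a gene therapy that depolarizes mitochondria of cancer cells with light made inside the cell. The labels give the ADC at 16 mg/kg and add the term Olap without explaining it, whereas the methods give 8 mg/kg. The labels speak of tumor cells taken from the lung and the methods of dissociated lung, and the transcripts of lung cells were abundant: the surfactant gene *Sftpc* was at 174.1 to 4315 CPM, the counts of a gene scaled to a common library total. The labels do not tie the samples to animals, and the methods give 4 biological samples per group, of which 2 per group were analyzed here. In bulk RNA, more cells of one type and more RNA per cell cannot be told apart.

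Neutrophils make their granules in order as they mature in the bone marrow. The primary granules are filled first, in promyelocytes, with myeloperoxidase and the serine proteases. The secondary granules follow in myelocytes with lactoferrin, cathelicidin and lipocalin 2, and mature cells in tissue keep the proteins while most of these transcripts have been lost. Neutrophils are recruited to lungs that carry metastases, and their granule proteins act on microbes, on matrix and on other cells. *Lcn2* and *Chil1* are also expressed outside neutrophils, by epithelial cells and macrophages among others.

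The promoter sequences of all 10 genes were taken from RefSeq (build GRCm38.p6), as windows with 250 bases before the gene start and 50 after it, and were searched on both strands for the core letters of factors known from granulocyte development. The PU.1 core GAGGAA was present in the windows of 7 genes, including all 4 primary granule genes, and in 28.3% of 32851 windows of all genes. The C/EBP letters TTGCNNAA were present in *Ltf*, *Ngp* and *Lcn2* and in 10.8% of all windows. The RUNX letters TGTGGT were present in *Ctsg*, *Ltf* and *Ltb4r1* and in 16.8% of all windows, and the TATA box letters TATAAA in *Ctsg* alone of the 10 and in 13.6% of all windows. *Camp* and *Chil1* held none of these letters. The matches are letters only and were not tested as sites. The 250 bases before the start are shown for 2 primary and 2 secondary granule genes, 5′ to 3′ on the strand of the gene, with matches on either strand in capitals. They lie at chr11:87793534-87793783 (*Mpo*), chr10:79886062-79886311 (*Elane*), chr9:111019042-111019291 (*Ltf*) and chr9:110419558-110419807 (*Ngp*), all on the plus strand. The first pair holds the PU.1 core and the second pair the C/EBP letters, and *Ltf* also holds the PU.1 core in reverse.
Mpo: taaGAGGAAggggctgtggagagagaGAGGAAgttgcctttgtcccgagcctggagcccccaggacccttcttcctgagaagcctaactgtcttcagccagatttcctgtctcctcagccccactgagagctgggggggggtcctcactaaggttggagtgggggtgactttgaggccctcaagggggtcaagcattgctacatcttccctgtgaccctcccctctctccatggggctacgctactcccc
Elane: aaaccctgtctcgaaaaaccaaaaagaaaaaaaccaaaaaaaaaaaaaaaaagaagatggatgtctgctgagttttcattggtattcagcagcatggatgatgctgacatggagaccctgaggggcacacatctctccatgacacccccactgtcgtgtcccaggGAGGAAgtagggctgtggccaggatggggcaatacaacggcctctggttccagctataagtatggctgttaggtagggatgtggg
Ltf: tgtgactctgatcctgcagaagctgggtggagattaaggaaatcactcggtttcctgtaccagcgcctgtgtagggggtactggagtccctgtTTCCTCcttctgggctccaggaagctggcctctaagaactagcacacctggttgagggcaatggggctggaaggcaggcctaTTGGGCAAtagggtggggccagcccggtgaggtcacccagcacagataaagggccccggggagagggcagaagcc
Ngp: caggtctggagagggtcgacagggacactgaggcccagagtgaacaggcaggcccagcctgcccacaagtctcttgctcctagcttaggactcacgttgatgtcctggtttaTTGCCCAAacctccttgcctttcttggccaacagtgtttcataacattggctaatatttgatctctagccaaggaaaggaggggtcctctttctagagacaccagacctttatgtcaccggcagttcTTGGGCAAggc

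Total counts were between 15263375 and 19675436 per sample, at which 3 counts equal 0.152 to 0.197 CPM, for counting error only. All 10 genes passed the expression filter, along with 15320 genes in all. Values are given as CPM normalized by TMM, with replicate 1 before replicate 2 of each group, and fold changes are log2 values of ADC/cmLumiOpto over saline from edgeR with the standard error (SE). By the quasi-likelihood test of edgeR, with p adjusted by Benjamini-Hochberg, 0 of the 10 genes and 0% of all 15320 genes had an adjusted p under 0.05. DESeq2 called 1353 genes and 0 of the 10, and the edgeR exact test called 1170 genes and 2 of the 10 (*Camp* and *Chil1*). At an unadjusted p under 0.05, 4 of the 10 genes were higher, beside 11.0% of all genes, and since the genes were chosen on this contrast nothing is read from that count. With 2 samples against 2, an exact permutation test of a single gene cannot give a two-sided p below 0.333.

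All 10 genes had a log2 fold change above 0, from 0.33 for *Prtn3* to 2.45 for *Camp*, with a median of 1.35, while the median of all tested genes was 0.028. Without ADC/cmLumiOpto replicate 2 the median of the 10 genes was 0.27. ADC/cmLumiOpto replicate 2 had the highest level of all 4 samples for each of the 10 genes, beside 22.9% of all genes tested. Saline replicate 2 had the lowest for 8 of the 10, for which the share of all genes was not computed. ADC/cmLumiOpto replicate 1 lay between the saline samples for *Prtn3*, *Ltf* and *Ngp*, and below both for *Mpo* and *Ltb4r1*. Both treated samples lay above both saline samples for 5 genes (*Elane*, *Ctsg*, *Camp*, *Lcn2* and *Chil1*), beside 28.1% of all genes tested. For *Elane* that margin was 1.189 against 1.186 CPM, and with the library size in place of TMM the groups of this gene overlapped, which left 4 genes. Together the 10 genes took 0.083% and 0.0501% of all counts in saline, against 0.0955% and 0.214% after treatment.

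**Figure D1:**
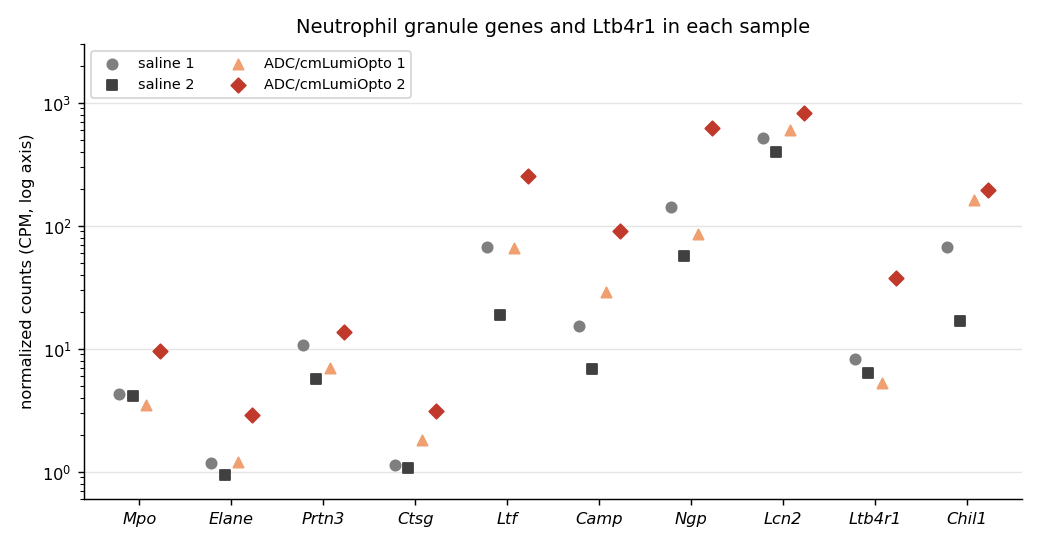
Normalized counts (CPM, log axis) of the 10 genes, with 1 point per sample (gray: saline replicates 1 and 2, orange and red: ADC/cmLumiOpto replicates 1 and 2). The red diamonds of ADC/cmLumiOpto replicate 2 are the highest point for every gene, and the orange triangles of ADC/cmLumiOpto replicate 1 lie at or below a saline sample for *Mpo*, *Prtn3*, *Ltf*, *Ngp* and *Ltb4r1*.

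The 4 primary granule genes had the lowest mean CPM per kb of exon of the 10 genes in both groups. *Mpo* (ENSMUSG00000009350), which encodes myeloperoxidase, the enzyme that makes hypochlorous acid, was counted 69 and 61 times in saline and 62 and 198 times after ADC/cmLumiOpto. At 4.31, 4.11, 3.51 and 9.64 CPM, ADC/cmLumiOpto replicate 1 was the lowest sample and replicate 2 stood 2.24 times above the highest of the others. The log2 fold change was 0.65 (SE 0.51) and became -0.27 when ADC/cmLumiOpto replicate 2 was left out. *Prtn3* (ENSMUSG00000057729), which encodes proteinase 3, was counted 171 and 84 times in saline and 124 and 278 times after treatment. The groups overlapped, with ADC/cmLumiOpto replicate 1 at 7.02 CPM between 5.66 and 10.7 CPM in saline. Its log2 fold change of 0.33 (SE 0.45) was the smallest of the set, and it became -0.22 without ADC/cmLumiOpto replicate 2 and -0.052 without saline replicate 2. *Prtn3* overlaps *Plppr3* on the opposite strand, which had 93, 87, 31 and 80 counts, and the strand setting of the counting is not given in the sources used here, so reads from the shared part cannot be told apart.

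*Elane* (ENSMUSG00000020125), the gene of neutrophil elastase, lies next to *Prtn3* on chromosome 10 and had the fewest counts, 19 and 14 in saline and 21 and 59 after treatment. The exact Poisson 95% intervals, for counting error only, were 11.4 to 29.7 and 7.65 to 23.5 counts in saline, 13.0 to 32.1 in ADC/cmLumiOpto replicate 1 and 44.9 to 76.1 in replicate 2. The first 3 samples could not be separated at this depth, and the log2 fold change of 0.93 (SE 0.60) became 0.15 without ADC/cmLumiOpto replicate 2. *Ctsg* (ENSMUSG00000040314), which encodes cathepsin G, had 18 and 16 counts in saline and 32 and 64 after treatment. Both treated samples lay above saline, at 1.81 and 3.12 CPM against 1.12 and 1.08 CPM, although the counting interval of ADC/cmLumiOpto replicate 1 (21.9 to 45.2) reached into that of saline replicate 1 (10.7 to 28.4). Its log2 fold change was 1.16 (SE 0.51) and stayed between 0.71 and 1.497 whichever sample was left out.

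Each of the 5 secondary granule genes had a higher mean CPM per kb of exon than each primary granule gene, in both groups. *Ngp* (ENSMUSG00000032484), the gene of neutrophilic granule protein, a relative of the cathelicidins, had 2251 and 845 counts in saline and 1501 and 12673 after treatment. ADC/cmLumiOpto replicate 2, at 617 CPM, was 7.26 times replicate 1, the widest gap between the treated samples among the 10 genes, and 4.39 times the highest other sample, while replicate 1 at 85.0 CPM lay between the saline samples at 141 and 56.9 CPM. The log2 fold change of 1.83 (SE 0.86) turned to -0.22 without ADC/cmLumiOpto replicate 2. *Ltf* (ENSMUSG00000032496), which encodes the iron-binding lactoferrin, had 1076 and 279 counts in saline and 1168 and 5196 after treatment. ADC/cmLumiOpto replicate 1 at 66.1 CPM was level with saline replicate 1 at 67.2 CPM, and replicate 2 was 3.76 times the highest other sample at 253 CPM. Its log2 fold change was 1.89 (SE 0.75) and ranged from 0.62 to 3.07 as single samples were omitted.

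*Camp* (ENSMUSG00000038357), the only cathelicidin gene of the mouse, whose product is cut to the antimicrobial peptide CRAMP, had the largest fold change of the set. It had 243 and 101 counts in saline and 513 and 1875 after treatment, or 15.2 and 6.80 CPM against 29.0 and 91.3 CPM. The groups did not overlap, and ADC/cmLumiOpto replicate 1 was 1.91 times saline replicate 1. The log2 fold change was 2.45 (SE 0.60), with a range of 1.40 to 3.13 on leaving out each sample, the lowest without ADC/cmLumiOpto replicate 2. *Camp* and *Ngp* did not move in proportion, since the ratio of *Ngp* to *Camp* in CPM per kb was 5.75 and 5.19 in saline and 1.81 and 4.19 after treatment.

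*Lcn2* (ENSMUSG00000026822), which encodes lipocalin 2, a carrier of bacterial siderophores, had the most counts, at 8299 and 5895 in saline and 10673 and 17030 after treatment. Its values were 518 and 397 CPM in saline and 604 and 829 CPM after treatment, and it was the gene of the set with the tightest spread (log2 fold change 0.65, SE 0.23). The groups were separate by a factor of 1.17 between the nearest samples, and the value stayed between 0.40 and 0.86 with any sample left out. *Chil1* (ENSMUSG00000064246), which encodes a chitin-binding lectin without chitinase activity, had 1077 and 250 counts in saline and 2865 and 4028 after treatment. It differed from the other secondary granule genes in that both treated samples were alike, at 162 and 196 CPM, whereas the saline samples were 4.00 times apart, at 67.3 and 16.8 CPM. The lowest treated sample was 2.41 times the highest saline sample, the widest separation of the set, and the log2 fold change of 2.09 (SE 0.57) ranged from 1.42 without saline replicate 2 to 3.40 without saline replicate 1.

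*Ltb4r1* (ENSMUSG00000046908), the high-affinity receptor for leukotriene B4, a lipid that attracts neutrophils, had 133 and 95 counts in saline and 93 and 773 after treatment. At 5.26 CPM, ADC/cmLumiOpto replicate 1 was the lowest sample, and replicate 2 at 37.6 CPM was 4.53 times the highest other. The log2 fold change of 1.55 (SE 0.80) became -0.49 without ADC/cmLumiOpto replicate 2, the lowest value of the 10 genes in that setting.

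**Figure D2:**
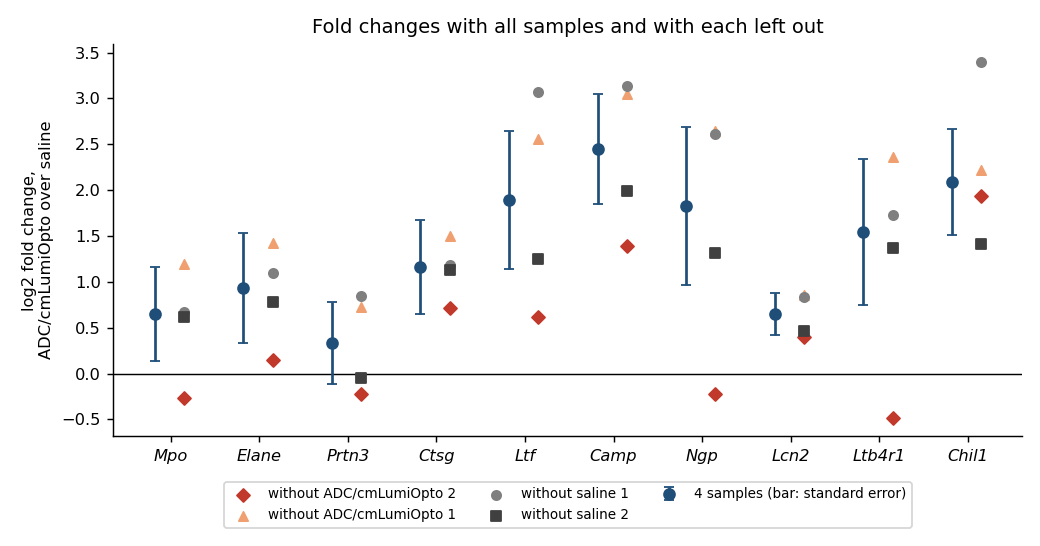
Log2 fold change of each gene, ADC/cmLumiOpto over saline, from all 4 samples (blue, bars are the standard error) and with each sample left out. Without ADC/cmLumiOpto replicate 2 (red) the value is below 0 for *Mpo*, *Prtn3*, *Ngp* and *Ltb4r1*, while *Camp* and *Chil1* stay above 1 in every setting.

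Levels of different genes were compared per length, as CPM per kb of exon. In the saline group the order was *Lcn2* (175), *Ngp* (80.8), *Chil1* (14.99), *Camp* (14.5), *Ltf* (12.5), *Ltb4r1* (5.27), *Prtn3* (4.72), *Mpo* (1.23), *Elane* (1.08) and *Ctsg* (1.07). The samples of *Lcn2* did not overlap those of *Ngp*, nor those of *Ngp* any lower gene, but *Chil1*, *Camp* and *Ltf* overlapped, as did *Ltf* and *Ltb4r1*, *Ltb4r1* and *Prtn3*, *Mpo* and *Elane*, and *Elane* and *Ctsg*. After treatment the means of *Ngp* (287) and *Lcn2* (273) were at the top with overlapping samples. *Camp* (79.4), *Chil1* (63.9), *Ltf* (46.2), *Ltb4r1* (15.4), *Prtn3* (5.93), *Ctsg* (2.39), *Elane* (2.06) and *Mpo* (1.92) followed, and the samples of each neighboring pair among them overlapped, except *Prtn3* and *Ctsg*. The secondary granule genes as a sum exceeded the primary ones 38.7 and 33.8 times in saline and 51.6 and 65.5 times after treatment.

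Mature neutrophil markers were also highest in ADC/cmLumiOpto replicate 2. The list held 18 genes, all tested, and their summed level was 1331 to 1881 CPM in saline and 1783 and 9330 CPM in ADC/cmLumiOpto replicates 1 and 2. ADC/cmLumiOpto replicate 2 was the highest sample for 17 of the 18, all but *Padi4*, beside 22.9% of all genes tested. No marker of the list was at 0 in any sample. In edgeR's quasi-likelihood test 0 passed the adjusted threshold, and 12 were higher at an unadjusted p under 0.05, beside 11.0% of all genes. The median log2 fold change was 1.63 and became 0.44 without ADC/cmLumiOpto replicate 2. The calprotectin subunit gene *S100a9* was at 504 and 210 CPM in saline and 561 and 3808 CPM after treatment, and *Ly6g*, a surface marker of mouse neutrophils, at 5.43, 1.41, 7.70 and 24.2 CPM. The lectin receptor genes *Clec4d* (10.2 and 12.7 CPM against 19.2 and 48.2 CPM) and *Clec4e* (7.74 and 7.41 CPM against 12.5 and 34.7 CPM) and the histidine decarboxylase gene *Hdc* (21.8 and 13.7 CPM against 33.6 and 65.8 CPM) did not overlap between the groups. *G0s2* was low, at 1.499, 1.68, 3.51 and 7.64 CPM. The part of a different share of neutrophils in the values of the 10 genes was not tested.

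**Figure D3:**
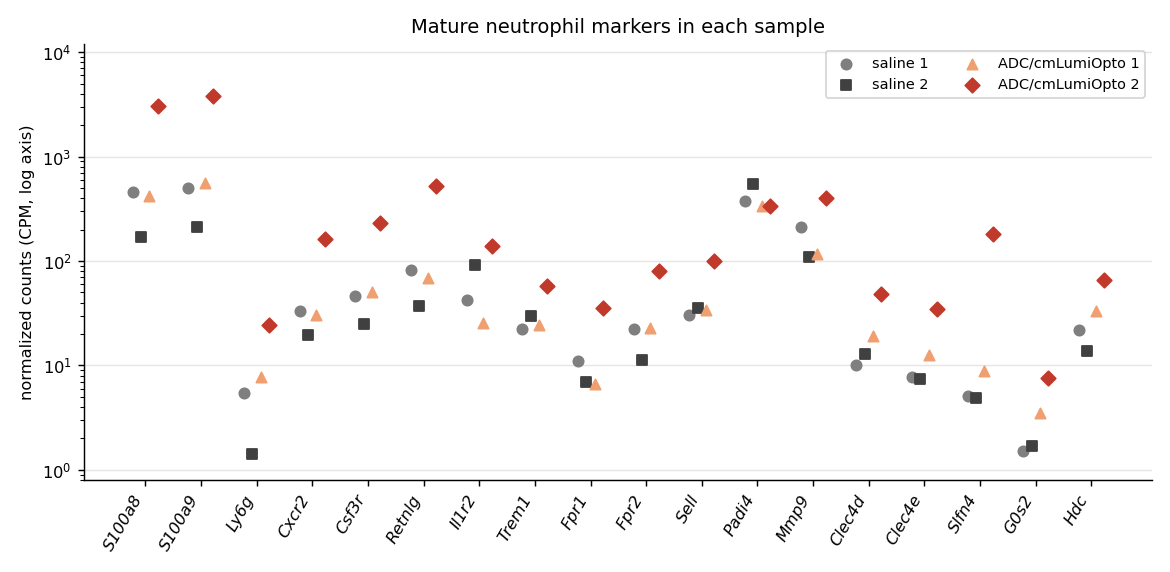
Normalized counts (CPM, log axis) of 18 mature neutrophil markers, with 1 point per sample. The red diamonds of ADC/cmLumiOpto replicate 2 lie highest for 17 genes, up to 3808 CPM for *S100a9*, and *Padi4* is the exception.

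Relative to these markers the summed granule genes were lowest in ADC/cmLumiOpto replicate 2. The secondary granule genes amounted to 18.8% and 22.7% of the summed marker level per kb in saline, and to 20.7% and 8.19% in ADC/cmLumiOpto replicates 1 and 2. For the primary granule genes the shares were 0.487% and 0.673% in saline and 0.40% and 0.125% after treatment. Set against *S100a9* alone, 8 of the 10 genes were lowest in ADC/cmLumiOpto replicate 2. *Prtn3* was at 0.638% and 0.811% of *S100a9* in saline and at 0.377% and 0.107% after treatment. *Ngp* was at 11.9% and 11.6% in saline and at 6.47% and 6.92% after treatment, and for *Ltf* the shares were 2.02%, 1.35%, 1.78% and 1.01%. *Chil1* reached its highest share, 5.38%, in ADC/cmLumiOpto replicate 1 and its lowest, 0.959%, in replicate 2. The result depended on the genes compared. *S100a8* and *S100a9* made up 67.4% to 88.6% of the marker sum per kb, and *Lcn2* made up 52.5%, 69.3%, 55.5% and 29.1% of the secondary granule sum. Without *Lcn2*, the secondary granule genes amounted to 8.94% and 6.97% of the marker sum in saline and to 9.20% and 5.80% after treatment. Set against *Ly6g*, which had 21 to 497 counts, 6 of the 10 genes were lowest in ADC/cmLumiOpto replicate 2, but *Ltf*, *Ngp* and *Ltb4r1* were lowest in ADC/cmLumiOpto replicate 1 and *Camp* in saline replicate 1. The ratios were computed after the counts had been seen and have no test.

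**Figure D4:**
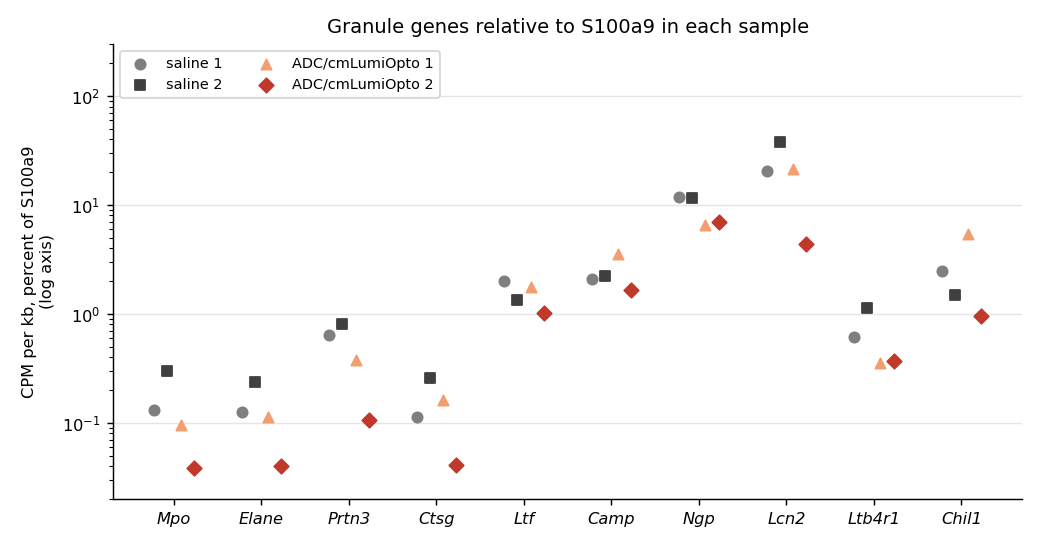
Level of each gene in CPM per kb as a percentage of *S100a9* in the same sample (log axis), with 1 point per sample. ADC/cmLumiOpto replicate 2 (red) is the lowest point for 8 genes, and for *Ngp* and *Ltb4r1* it lies next to ADC/cmLumiOpto replicate 1.

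Other granule proteins of neutrophils were listed as 23 genes, of which 21 were tested. None passed the adjusted threshold in edgeR's quasi-likelihood test, 8 were higher and 0 lower at an unadjusted p under 0.05, beside 11.0% of all genes in the higher direction. The median log2 fold change was 0.70, and 0.24 without ADC/cmLumiOpto replicate 2. A total of 18 had a value above 0, and 15 were highest in ADC/cmLumiOpto replicate 2, as were 22.9% of all genes. Haptoglobin (*Hp*), stored in secondary granules, was at 123 and 52.9 CPM in saline and 315 and 480 CPM after treatment (log2 fold change 2.18, SE 0.42, adjusted p = 0.116 in edgeR). *Cyba*, a subunit of the NADPH oxidase, was at 211 and 201 CPM against 388 and 421 CPM (log2 fold change 0.97, SE 0.16, adjusted p = 0.116 in edgeR). The lysozyme gene *Lyz2*, shared with macrophages, was highest in ADC/cmLumiOpto replicate 1, at 4293 CPM against 2443 CPM in replicate 2 and 1127 to 1685 CPM in saline. *Slc11a1*, a metal ion transporter of phagocytes, was at 29.0 and 22.5 CPM against 38.7 and 41.3 CPM. Of the genes not tested, *Prss57*, a serine protease of primary granules, was at 0.125 to 0.170 CPM in the first 3 samples and 0.876 CPM in ADC/cmLumiOpto replicate 2, and *Bpi* was at or below 0.0487 CPM in all.

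Genes of neutrophil formation numbered 15, with 14 tested. None passed the adjusted threshold. At an unadjusted p under 0.05 in edgeR, 7 were higher and 1 lower, beside 1690 and 1863 of all 15320 genes tested. The median log2 fold change was 0.78, and it was 0.44 without ADC/cmLumiOpto replicate 2 and 1.31 without replicate 1 of that group. *Cebpe*, the factor that drives secondary granule genes, was at 0.562 and 0.875 CPM in saline and 0.679 and 6.33 CPM after treatment, so it was high in ADC/cmLumiOpto replicate 2 alone. *Ms4a3*, a marker of granulocyte and monocyte progenitors, was at 0.437, 0.269, 0.623 and 2.24 CPM. ADC/cmLumiOpto replicate 2 was the highest sample for 9 of the 14 tested genes, beside 22.9% of all genes. Other genes of the list were highest in ADC/cmLumiOpto replicate 1. These were *Gfi1* (0.250, 0.135, 1.02 and 0.633 CPM), *Flt3* (1.12, 0.202, 3.85 and 2.09 CPM) and *Myb* (4.81, 1.48, 6.74 and 2.39 CPM). *Spi1*, the gene of PU.1, was at 69.8 and 52.1 CPM in saline and 83.1 and 151 CPM after treatment (log2 fold change 0.94, SE 0.31), and *Cebpd* at 25.3 and 16.4 CPM against 42.7 and 68.9 CPM. *Runx1* was at 179 and 197 CPM in saline and 79.2 and 98.2 CPM after treatment (log2 fold change -1.08, SE 0.18, adjusted p = 0.116 in edgeR). *Cd34*, also expressed by endothelial cells, was at 63.9 and 46.0 CPM against 80.4 and 88.0 CPM. The ligand of the granulocyte receptor, *Csf3*, was at 25.5 and 27.9 CPM in saline and 23.3 and 23.4 CPM after treatment. *Cebpe* and *Ms4a3* were named after their values were seen, as were *Gfi1*, *Flt3*, *Myb*, *Csf3*, *S100a9*, *Ly6g*, *Padi4*, *Prss57*, *Bpi*, *Sftpc*, *Abca3*, *Prg2* and *Epx*.

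Inhibitors of the serine proteases were listed as 13 genes, of which 7 were tested. All 7 had a log2 fold change above 0, beside 7961 of all 15320 genes. At an unadjusted p under 0.05 in edgeR 2 were higher, beside 11.0% of all genes. Secretory leukocyte inhibitor, *Slpi*, was at 131 and 159 CPM in saline and 281 and 290 CPM after treatment (log2 fold change 0.98, SE 0.17), with both treated samples alike. *Serpinb1a*, an inhibitor inside neutrophils, was at 11.4 and 10.4 CPM against 19.8 and 54.9 CPM (log2 fold change 1.77, SE 0.46). Neither passed the adjusted threshold (adjusted p = 0.116 and 0.123 in edgeR's quasi-likelihood test). The *Serpina1* genes are near copies, among which reads can be misassigned, and only *Serpina1b* was tested, at 1.56 and 2.83 CPM against 3.57 and 3.70 CPM. *Wfdc2* overlapped between the groups (338 and 487 CPM against 559 and 466 CPM).

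The list for leukotriene B4 held 9 genes including *Ltb4r1*, with 8 tested and a median log2 fold change of 0.21. At an unadjusted p under 0.05 in edgeR 1 of them was higher, beside 11.0% of all genes. *Alox5ap*, the activating protein of 5-lipoxygenase, followed the receptor in being high in ADC/cmLumiOpto replicate 2 alone (50.9 and 39.5 CPM in saline, 50.04 and 206 CPM after treatment), as did *Cyp4f18*, which inactivates leukotriene B4 (11.3, 6.67, 9.74 and 36.6 CPM). *Pla2g4a*, the phospholipase that releases arachidonic acid, was at 67.1 and 77.4 CPM in saline and 65.7 and 46.4 CPM after treatment. Among 10 partners of the granule proteins, 8 were tested, with 0 past the adjusted threshold. At an unadjusted p under 0.05 in edgeR, 2 were higher and 2 lower, beside 1690 and 1863 of all 15320 genes tested. *Fpr2*, a receptor for cathelicidin peptides, was at 22.1 and 11.3 CPM in saline and 22.9 and 79.5 CPM after treatment. *Tmem219*, part of a receptor for the *Chil1* protein, was at 9.68 and 10.5 CPM against 15.2 and 15.6 CPM. *Lrp1*, which takes up lactoferrin, was lower, at 802 and 1032 CPM in saline and 359 and 495 CPM after treatment (log2 fold change -1.10, SE 0.23). *F2rl1*, a receptor cleaved by proteases, was at 23.2 and 32.1 CPM against 15.1 and 12.9 CPM.

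Markers of other cell types also differed between the samples. The 9 alveolar type 2 markers summed to 1792 and 474 CPM in saline and 6105 and 5134 CPM after treatment. Beside 28.1% of all genes tested, 8 of the markers lay above saline in both treated samples, and *Abca3* lay below. Among them, *Sftpd* was at 53.8 and 20.5 CPM against 220 and 173 CPM, *Sftpa1* at 160 and 41.3 CPM against 428 and 411 CPM, *Lamp3* at 17.0 and 3.77 CPM against 63.2 and 45.5 CPM, and *Napsa* at 36.8 and 21.5 CPM against 86.3 and 101 CPM. The 8 airway secretory markers summed to 1147 and 82.0 CPM in saline and 6218 and 2970 CPM after treatment. All 8 lay above saline in both treated samples, again beside 28.1% of all genes tested. *Scgb3a1* was at 2.44 and 1.55 CPM against 22.4 and 15.8 CPM, and *Reg3g*, *Bpifa1* and *Muc5b* did not exceed 8.76 CPM. Monocyte and macrophage markers (9 genes) summed to 3088 and 2129 CPM in saline and 6068 and 3730 CPM after treatment. Alveolar macrophage markers (9 genes) summed to 238 and 416 CPM against 192 and 240 CPM, of which *Mrc1* made up 212 and 391 CPM against 135 and 171 CPM. Of the 8 tested markers of that list, 5 had a log2 fold change above 0, with a median of 0.75 over the 8, and *Car4* was at 7.56 and 7.21 CPM in saline and 25.1 and 39.4 CPM after treatment. Erythroid and platelet markers (8 genes) were at 1121 and 378 CPM in saline and 1891 and 2100 CPM after treatment. Tumor epithelial markers (8 genes) were at 2998 and 3350 CPM against 2951 and 2868 CPM, of which *Krt8* made up 1139 and 1541 CPM against 1130 and 1116 CPM. Of the 7 tested, 3 had a log2 fold change above 0 and 4 below. *Krt14* was at 53.8 and 43.5 CPM against 37.8 and 25.7 CPM, and *Cdh1* at 266 and 171 CPM against 283 and 277 CPM. The share of tumor cells was not measured by this sum. Lymphocyte markers (9 genes) were at 42.9 and 15.1 CPM against 78.3 and 35.8 CPM. Eosinophil and mast cell markers (10 genes) did not exceed 8.09 CPM as a sum, with *Prg2* and *Epx* each at 0 in 3 samples. The part of these cells in the values of *Lcn2*, *Chil1* and the other genes was not tested.

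**Figure D5:**
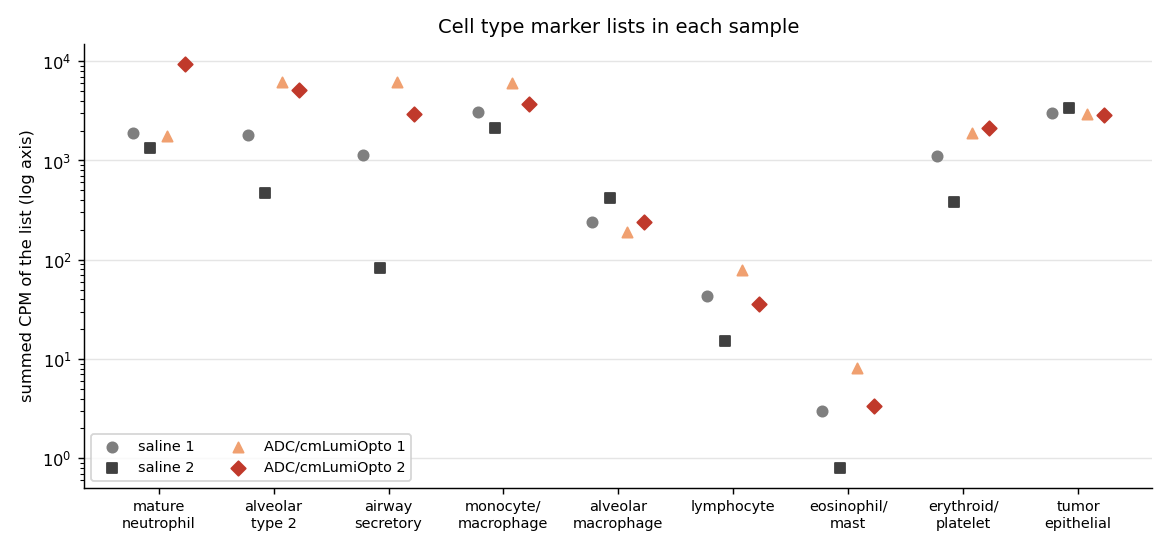
Summed CPM (log axis) of each list of cell type markers, with 1 point per sample. For mature neutrophil markers ADC/cmLumiOpto replicate 2 stands alone at 9330 CPM, while for alveolar type 2 and airway secretory markers both treated samples lie above both saline samples.

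The genes with the most similar pattern were sought among 15310 others, as the smallest Euclidean distance of mean-centered log2 CPM over the 4 samples. For *Ltb4r1* it was *Fpr1* (distance 0.389), at 11.1 and 7.003 CPM in saline and 6.62 and 35.2 CPM after treatment. For *Mpo* it was *Grina* (0.0863), with 144, 132, 111 and 294 CPM, for *Lcn2* *Aim2* (0.0298), with 6.37, 4.98, 7.59 and 10.5 CPM, and for *Chil1* *Slc15a2* (0.101), with 2.69, 0.606, 6.17 and 7.94 CPM. *Ltf* was nearest to *Ankrd22* (0.131), *Elane* to *Tal1* (0.0877), *Prtn3* to *Pgf* (0.0785), *Ctsg* to *Sox13* (0.0508), *Camp* to *Gm15987* (0.279) and *Ngp* to *Gria1* (0.188). With 4 samples many genes lie close by. The member nearest to *Mpo* was *Elane* (0.371), with 69 other genes nearer, and the nearest to *Lcn2* was *Ctsg* (0.502), with 1234 nearer.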

How the data were processed

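RNA of lung with 4T1 metastases was sequenced from 2 saline and 2 ADC/cmLumiOpto samples, grouped by the titles of the samples. The table deposited by the authors holds whole-number counts for each gene that were not normalized, and the sums per sample are given as its depth. Reads were aligned with HISAT2 according to the methods, and the counting program is not given in the sources used here. The methods name GRCm38, while the submitters' processing notes list mm39. The deposited positions of the 10 genes matched GENCODE M21 of GRCm38 for 0 of 10 genes, although all 10 spans had the same length, so no gene positions are printed. The deposited exon length of each gene was used for CPM per kb. Promoter windows are RefSeq sequences of GRCm38.p6.

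The analysis was run with edgeR 4.0.16 under R 4.3.3: filterByExpr (minimum count 10, minimum total 15), TMM, estimateDisp, glmQLFit and glmQLFTest, with Benjamini-Hochberg adjustment over 15320 genes and a threshold of 0.05. The prior count for fold changes was 0.125, and SE is the log2 fold change divided by the square root of F. p-values measure the spread between these samples only. The rule for named genes took the 10 genes, up to 4 genes with the smallest p from each list and the gene nearest in pattern to each of the 10. The 10 genes and all lists were chosen with earlier results of these data known. The procedure was tested on simulated counts in which 200 genes were changed by a log2 fold change of 2 up or down. The quasi-likelihood test recovered 92.3% of those tested. Every simulated gene was given the same dispersion, so this recovery does not carry over to these samples. DESeq2 1.42.0, library size, upper-quartile scaling, the edgeR exact test, other filters, a replicate block, removal of the trend on gene length (lowess span 0.3) and leaving out each sample were run as alternatives.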

Additional observations from a re-analysis of the deposited data

How the results depend on the processing

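Of 120 fold changes recomputed for single genes of the 10, 115 stayed above 0. This held for 80 of 80 with all samples kept and for 35 of 40 with a sample left out. The genes were chosen on these same samples, so these counts are a description and no independent support. Leaving out a sample gave ranges of -0.27 to 1.20 (*Mpo*), -0.22 to 0.85 (*Prtn3*), -0.22 to 2.65 (*Ngp*) and -0.49 to 2.36 (*Ltb4r1*), with the lowest value without ADC/cmLumiOpto replicate 2. *Prtn3* was also below 0 without saline replicate 2 (-0.052). The median ranged from 0.27 to 1.86 for the 10 genes, from -0.14 to 0.70 for the leukotriene B4 list and from -0.086 to 0.55 for the binding partners. The number of genes past the adjusted threshold, 0 in the quasi-likelihood test, was 1353 with DESeq2, 1170 with the exact test, 2259 without the filter and 607 with the replicate block. Of the 10 genes, 0 passed with DESeq2, 2 with the exact test, 6 without the filter (all but the primary granule genes) and 1 with the replicate block (*Chil1*). Without the filter every gene with a count was tested, and 31185 of the 56748 genes had none. The 10 genes were chosen on this contrast, so nothing is read from their numbers. Leaving out a sample gave 0 to 218 genes and 0 to 1 of the 10, the most without saline replicate 1. When an arm holds 1 sample, it is assumed to vary like the other group. The deviations of same-numbered samples had r = 0.0985 across genes, which are not independent replicates. With 2 samples per group this is no test of a shared pairing or batch, and the replicate block changed the number of genes called. The titles only number the samples, and the numbers are taken as names. The causes were not tested. With 14 to 21 counts in 3 samples, *Elane* is limited by depth.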
